A study of Mus musculus with 4 samples.

Results

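10 genes of macrophage complement and lipid handling were described in immune cells of mouse melanomas: C1qa, C1qb, C1qc, Apoe, Trem2, Gpnmb, Spp1, Fabp5, Pltp and Lpl. They were taken by name from the 32285 genes of the deposited expression table, and all 10 were in it. The tumors were grown in wild-type C57BL/6 mice from 20967, a melanoma cell line made on a C57BL/6 background that carries Nras+LSL-G12D and Tyr::CreERT2+/o, so the tumor cells of both groups share 1 line and its alleles. In the control group 5 tumors received a control treatment, which the study's methods give as a cetraben cream. In the clobetasol group 5 tumors received clobetasol propionate, a potent topical glucocorticoid, that is, a steroid that acts through the glucocorticoid receptor. The age of the mice and the length of the treatment before sorting were not given in the labels. A figure legend of the study does give the days after treatment for its single-cell tumors. Live CD45+ cells, the leukocytes, were sorted from each tumor, marked with a hashtag antibody of that tumor and pooled by group, and 17100 control cells and 3500 clobetasol cells were loaded into 1 channel each. Treatment and channel therefore cannot be told apart in any comparison of the groups.

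C1q is the recognition part of the classical complement pathway. Its A, B and C chains, which C1qa, C1qb and C1qc encode, join into 1 hexameric molecule that binds antibody complexes, dying cells and debris, and in tissues macrophages are its main source. The other members belong to the program with which macrophages take up, carry and release lipid. Apoe encodes apolipoprotein E, which carries cholesterol and phospholipid out of the cell, and Pltp encodes phospholipid transfer protein, which moves phospholipid between lipoproteins. Lpl encodes lipoprotein lipase, which frees fatty acids from triglyceride, and Fabp5 encodes a fatty acid binding protein of the cytosol. Trem2 encodes a surface receptor for lipids and apolipoproteins that signals through Tyrobp. Gpnmb encodes a lysosomal and surface glycoprotein of lipid-laden macrophages, and Spp1 encodes osteopontin, a secreted matrix protein that marks a class of tumor macrophages.

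In the GRCm38 (mm10) annotation the 3 C1q genes lie next to each other on the minus strand of chromosome 4, C1qb at chr4:136880129-136886187, C1qc at chr4:136889804-136893065 and C1qa at chr4:136895917-136898803. Apoe lies at chr7:19696109-19699188 on the minus strand, Trem2 at chr17:48346401-48354147 on the plus strand, Gpnmb at chr6:49036546-49070929 on the plus strand and Spp1 at chr5:104435118-104441050 on the plus strand. Fabp5 lies at chr3:10012548-10016607 and Lpl at chr8:68880491-68907448, both on the plus strand, and Pltp at chr2:164839518-164857711 on the minus strand. Every member is protein coding. Pltp overlaps Ctsa on the opposite strand and Spp1 overlaps Gm42793 on its own strand, and the other 8 members overlap no annotated gene. Gm42793 was not a row of the table.

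Promoters of 7 members were found in RefSeq's table for GRCm38.p6; C1qa, Fabp5 and Lpl had no entry. The stretches before the transcription start are shown for C1qb and C1qc, the neighbors whose transcripts moved together from cell to cell, and for Pltp, a member that fell in TAM under clobetasol. Capitals mark AGAACA, a half-site of the glucocorticoid receptor, AGGTCA, a half-site of nuclear receptors such as LXR, and GAGGAA, a site of the myeloid factor PU.1, each searched on both strands.

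C1qb upstream, chr4:136886201-136886450 (minus strand): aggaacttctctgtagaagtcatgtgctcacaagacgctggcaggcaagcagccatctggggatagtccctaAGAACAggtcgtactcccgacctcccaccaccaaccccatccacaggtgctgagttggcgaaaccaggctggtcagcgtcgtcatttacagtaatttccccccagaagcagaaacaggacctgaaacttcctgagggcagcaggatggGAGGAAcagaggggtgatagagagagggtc

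C1qc upstream, chr4:136893066-136893164 (minus strand): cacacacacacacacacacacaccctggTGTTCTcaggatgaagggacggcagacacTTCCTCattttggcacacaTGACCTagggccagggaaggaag

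Pltp upstream, chr2:164857712-164857958 (minus strand): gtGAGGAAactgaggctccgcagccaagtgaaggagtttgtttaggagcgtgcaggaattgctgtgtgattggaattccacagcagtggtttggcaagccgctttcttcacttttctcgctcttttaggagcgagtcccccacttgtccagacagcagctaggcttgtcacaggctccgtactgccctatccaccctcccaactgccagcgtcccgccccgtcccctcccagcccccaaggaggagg

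The 250 bases of C1qb held 1 match of AGAACA and 1 of GAGGAA, and these motifs were found in 16.1% and 23.3% of the 32851 promoters over the same 250 bases. The 99 bases of C1qc, which stop where the annotated gene begins, held 1 match of each of the 3 motifs, which 6.92%, 5.71% and 9.91% of promoters held over 99 bases. The 247 bases of Pltp held 1 match of GAGGAA, as did 22.9% of promoters, and neither AGAACA nor AGGTCA. No 2 of the matches overlapped. A match is a description of the letters and not of binding.

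The table held 4108 cells, 3803 of control and 305 of clobetasol tumors, and the channels shared 0 barcodes. The 7 clusters described here, of 16, were named by the authors as TAM (tumor-associated macrophages), Monocytes 1 to 3, DC 1, DC 2 and neutrophils, and held 1653 cells. UMIs are unique transcript counts, and a level is the gene's UMIs in every 10000 of a cell, averaged over the tumor's cells, and a tumor counted as a replicate with 10 or more cells of the cluster. TAM numbered 75 to 198 cells in a control tumor, and 17, 16, 3 and 7 in clobetasol tumors 2 to 5, with 0 in clobetasol tumor 1, so that 5 control and 2 clobetasol tumors were compared. The median TAM cell had 12883 UMIs in control and 17855 in clobetasol tumors. The 8 TAM markers fixed for the check, among them Adgre1, Csf1r and Cd68, summed to 31.7 UMIs per 10000 in control TAM cells. They summed to 28.1, 15.0 and 25.2 in control Monocytes 1 to 3 and to at most 4.84 in DC 1, DC 2 and neutrophils. The 7 monocyte markers summed to 59.7 in control TAM and to 81.3, 70.1 and 43.3 in control Monocytes 1 to 3. TAM and Monocytes 1 to 3 thus shared both lists. The 7 neutrophil markers summed to 474 in control neutrophils and to at most 2.08 in the other clusters described. The 10 DC markers summed to 92.4 in control DC 1, where Cd209a and Siglech were at 0, and to 69.8 in control DC 2. The same sum was 44.3 in control Monocytes 3 and 35.3 in control TAM. The melanoma markers summed to at most 0.0194 UMIs per 10000 in TAM of any tumor. The labels do not state that each tumor came from its own mouse, and p-values measure the spread between tumors.

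In control tumors the C1q chains were highest in TAM. C1qa reached 10.3 ± 1.73 UMIs per 10000 (SD, n = 5), with 8.13, 12.3, 10.0, 9.20 and 11.7 in tumors 1 to 5. Monocytes 1 followed with 2.70 ± 0.827 (SD, n = 4) and DC 2 with 0.609 ± 0.345 (SD, n = 5), and the tumors' ranges did not overlap at either step. C1qb stood at 6.57 ± 0.886 in TAM, 2.25 ± 0.534 in Monocytes 1 and 0.542 ± 0.220 in DC 2, and C1qc at 5.60 ± 0.707, 1.42 ± 0.229 and 0.250 ± 0.171, again without overlap from TAM to Monocytes 1 to DC 2. The ranges of Monocytes 2, DC 1 and neutrophils overlapped in the lower part of each order, where C1qa stood between 0.145 and 0.167. CD8 T cells, which do not make C1q, held 0.159 ± 0.0622 C1qa UMIs per 10000 in control tumors, and the C1qa of these 3 clusters was at that level. Monocytes 3 held too few cells in any control tumor and was left out of the orders of clusters. Its 22 pooled control cells held 10.3 C1qa UMIs per 10000 (exact Poisson interval 9.17 to 11.5) and 38.8 of Apoe (36.5 to 41.1). The pooled TAM levels were 11.6 and 35.2. Pooled Trem2 was 1.14 in Monocytes 3 and 1.12 in TAM. Pooled Spp1 was 11.1 in Monocytes 3, 6.75 in Monocytes 1 and 4.56 in TAM, and 127 and 185 of the 322 UMIs in Monocytes 3 came from control tumors 1 and 2.

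Apoe and Trem2 had the same order of clusters as each other at the top. Apoe, the member with the most UMIs, stood at 32.9 ± 6.31 per 10000 in TAM (SD, n = 5), 11.2 ± 3.24 in Monocytes 1 (n = 4) and 6.94 ± 3.50 in Monocytes 2 (n = 5), and at 0.446 to 0.824 in neutrophils, DC 2 and DC 1. TAM lay above Monocytes 1 in every tumor, while the ranges of Monocytes 1 and Monocytes 2 overlapped. Trem2 stood at 1.06 ± 0.109 in TAM, 0.332 ± 0.126 in Monocytes 1 and 0.166 ± 0.0619 in Monocytes 2, and its neutrophils held 0 UMIs in all 5 control tumors. Pltp was also highest in TAM, at 0.987 ± 0.318, but DC 2 at 0.651 ± 0.309 overlapped it, and neutrophils held 0 Pltp UMIs. So, with Monocytes 3 left out, 6 of the 10 members had their highest mean in TAM.

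The other 4 members were not highest in TAM. Fabp5 was highest in DC 1, at 18.7 ± 7.32 UMIs per 10000 (SD, n = 4), with 16.9, 29.5, 13.7 and 14.7 in control tumors 1 to 4. Every one of these values was above the highest of any other cluster, and Monocytes 1 at 2.03 ± 0.221, DC 2 at 1.83 ± 1.36 and TAM at 1.04 ± 0.392 followed with overlapping ranges. Control DC 1 had UMIs of Ccr7, Fscn1 and Ccl22, markers of mature dendritic cells, and also of Xcr1 and Clec9a from the same list. Control TAM, Monocytes 1 and DC 2 had UMIs of Ccr7, Fscn1 and Ccl22 too, so their presence does not set DC 1 apart. The TAM markers were low in DC 1 of control tumors, at 0.283 to 0.491 summed UMIs per 10000. Spp1 varied widely between tumors. In Monocytes 1 it was 0.817, 18.5, 2.91 and 10.6 in control tumors 1 to 4, with a mean of 8.22 ± 8.05, and in TAM it was 5.48 ± 1.75, within that range. Neutrophils carried Spp1 as well, at 1.85 ± 1.21 (SD, n = 5), while Monocytes 2 and both DC clusters held no more than 0.135 in a tumor, near the 0.0971 ± 0.0345 of CD8 T cells. Lpl was at 0.456 ± 0.256 in Monocytes 2 and 0.324 ± 0.211 in TAM, with overlapping ranges, and in 1 control tumor Monocytes 2 held no Lpl at all. Gpnmb was close to absent, with means of at most 0.169 in any cluster, and in TAM, Monocytes 1 and Monocytes 2 its highest value was that of control tumor 2.

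**Figure D1:**
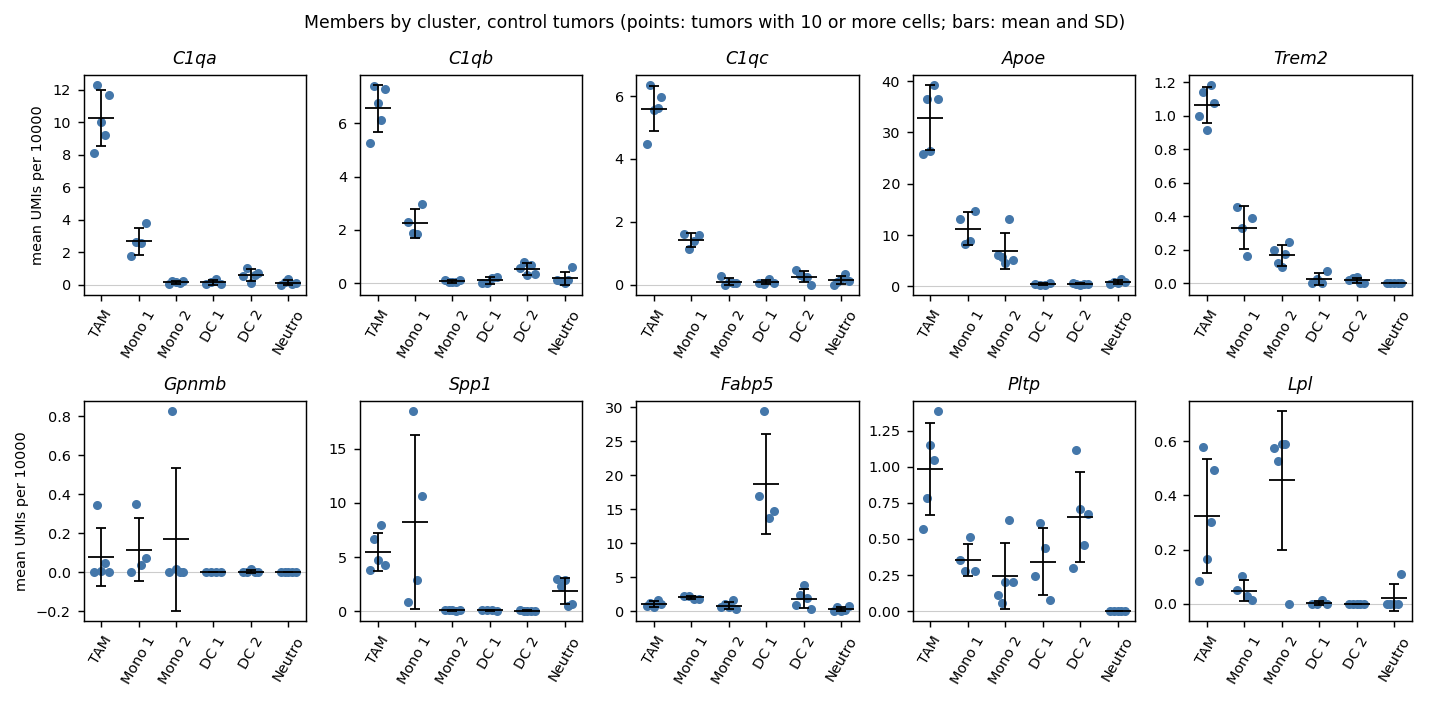
Level of each member in mean UMIs per 10000 (vertical axes, linear and of different height) in 6 clusters of the control tumors; points are tumors with 10 or more cells and bars the mean and SD. The C1q chains, Apoe, Trem2 and Pltp peak in TAM, whereas Fabp5 reaches 18.7 in DC 1 and Spp1 spans 0.817 to 18.5 in Monocytes 1.

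Within TAM the members were spread over cells in different ways. Apoe was found in 672 of 723 control TAM cells (92.9%, exact binomial interval 90.8 to 94.7), against 19.7% of control CD8 T cells at a median of 6826 UMIs. C1qa, C1qb and C1qc were each found in 60.6% to 63.1% of the TAM cells, against 3.18% to 7.61% of CD8 T cells, and Trem2 in 58.8% against 0.682%. After thinning every cell to 2000 UMIs, which left out 13 TAM cells, these shares were 83.4% for Apoe, 41.5% to 49.7% for the C1q chains and 18.5% for Trem2. Spp1 was found in 42.3% of TAM cells, Pltp in 40.4%, Fabp5 in 32.9%, Lpl in 4.84% and Gpnmb in 1.24%, against 5.91%, 1.25%, 5.23%, 0.114% and 0.455% of CD8 T cells. Intervals here cover counting error only.

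A few cells held most of the lipid-binding and matrix transcripts. The 72 control TAM cells with the highest level of a member held 35.6% of the summed level of Apoe and 36.4% to 40.9% of that of the C1q chains. The same share was 58.7% for Pltp, 73.1% for Fabp5 and 76.1% for Spp1. Lpl and Gpnmb were found in fewer than 72 cells. Across TAM cells of 1 control tumor, the 3 C1q chains followed each other closely, with a median Pearson r over the 5 tumors of 0.86 to 0.87 for each pair of chains. Apoe followed them less, with medians of 0.39 to 0.42. Spp1 stood apart, at -0.01 with C1qa, -0.02 with Apoe and -0.13 with Pltp, and was below 0 with Pltp in 5 of 5 tumors, while it was above 0 with Lpl in 5 of 5 (median 0.23). These r values are descriptions over cells that share a library and a depth.

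**Figure D2:**
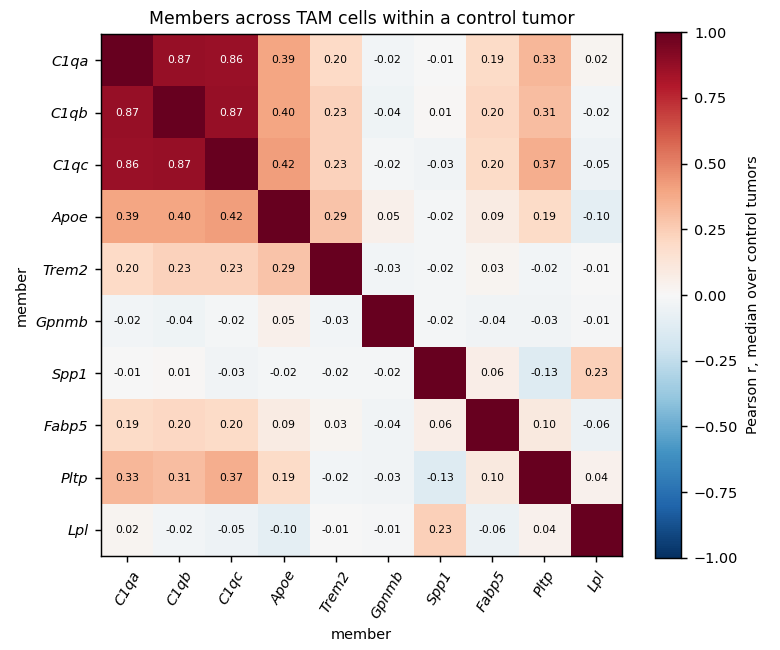
Pearson r between members over the TAM cells of a control tumor (color and printed value: median over the control tumors in which both had UMIs; axes: members). The C1q chains form a block of 0.86 to 0.87, Apoe reaches 0.39 to 0.42 with them, and Spp1 is near 0 with Apoe.

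Over the 28 control profiles of a cluster in a tumor, the 3 C1q chains were alike in level (r of the log2 level 0.91 to 0.93 over their 3 pairs), Trem2 was most like Apoe (0.94), and Fabp5 was unlike C1qa (-0.03) and Apoe (-0.18). Among 5953 other genes, those most like C1qa were Arg1 (0.92), which encodes arginase 1, and Rab3il1 (0.91), and those most like C1qb were Arg1 (0.91) and Mmp12 (0.89), a macrophage elastase. C1qc was most like Itga9 (0.95) and Arg1 (0.92). Apoe was most like Maf (0.95), a macrophage transcription factor, and Pla2g15 (0.93), a lysosomal phospholipase, and Trem2 was most like Ms4a7 and Mertk (both 0.93). Fabp5 was most like Zc3h12c (0.91) and Aebp2 (0.90), Pltp like Pea15a (0.91) and Ctsz (0.90), and Spp1 like Junos (0.90) and Mmp13 (0.86). Lpl was most like Glul (0.82) and Trp53bp2 (0.73), and Gpnmb like Nasp (0.63) and Abcg1 (0.60), both at lower r. The profiles share libraries, and r is given as a description.

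In TAM under clobetasol, Fabp5 and Pltp fell and C1qb rose, while C1qa, Apoe and Spp1 of the 2 clobetasol tumors lay within the control range. In such sorted pools fewer cells of a state and less RNA per cell cannot be told apart. Of the 9 members that passed the filter on low values, limma called 4 at an adjusted p under 0.05, in either direction, against 21.2% of all 5988 genes tested, and edgeR's quasi-likelihood test on the recovered UMI sums called 3, against 11.2% of the same genes. Fabp5, Pltp and Lpl passed the filter through their control levels, so the count of members called is a description. Of the genes called, 32.4% were higher by limma and 62.6% by edgeR, and the median log2 change of all genes was -0.12 by limma and 0.00 by edgeR.

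Fabp5 was 0.715, 1.26, 0.643, 1.59 and 1.01 UMIs per 10000 in control tumors 1 to 5 and 0.0448 and 0.138 in clobetasol tumors 2 and 3. Both clobetasol values lay below every control value, and the 10 TAM cells of clobetasol tumors 4 and 5 held no Fabp5. The log2 change of the level was -2.56 ± 0.32 (SE, limma, adjusted p = 0.000828; edgeR adjusted p = 0.0177). In counts, 1018 UMIs were found in 723 control cells and 7 in 43 clobetasol cells, a pooled level 12.0-fold lower (counting interval 5.78 to 29.8). UMIs of 1 cell are not independent, so such intervals are too narrow as limits on a fold. Fabp5 was found in 4 of the 43 clobetasol cells (9.30%, exact binomial interval 2.59 to 22.1), and after thinning in 2.33% against 12.7% of control cells.

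Pltp was 0.571, 0.781, 1.15, 1.05 and 1.39 UMIs per 10000 in control tumors and 0.0417 and 0.153 in clobetasol tumors 2 and 3. The groups again did not overlap, and tumors 4 and 5 held no Pltp. The log2 change was -2.47 ± 0.31 (SE, limma, adjusted p = 0.000873; edgeR adjusted p = 0.0150), and the pooled level was 12.2-fold lower (5.58 to 33.3). Pltp was found in 5 of the 43 cells (11.6%, 3.89 to 25.1), and after thinning in 2.33% against 14.1%. Ctsa, which overlaps Pltp on the other strand, stood at a log2 change of -0.03 (limma, adjusted p = 0.911).

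Lpl was 0.0829, 0.578, 0.165, 0.301 and 0.494 UMIs per 10000 in control tumors, from 260 UMIs in 35 cells, and had 0 UMIs in the 43 clobetasol cells. 0 of 43 allows a share of up to 6.98% of cells with a UMI (3 cells; exact binomial limit 8.22%), above the control share of 4.84%, so a fall of Lpl was not detectable at this number of cells. limma called Lpl (adjusted p = 0.0142) and edgeR did not (adjusted p = 0.210), and the limma call was lost without clobetasol tumor 2 (adjusted p = 0.111) or 3 (adjusted p = 0.0996). Without control tumor 2 or 5 Lpl did not pass the filter. Fabp5, Pltp and Lpl were the members with all clobetasol values below all control values, as were 23.6% of all genes tested.

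C1qb was 5.27, 7.40, 6.76, 6.13 and 7.29 UMIs per 10000 in control tumors and 8.88 and 12.1 in clobetasol tumors 2 and 3. Both were above the control range, with a log2 change of 0.66 ± 0.16 (SE, limma, adjusted p = 0.0134; edgeR adjusted p = 0.00585). The call ended when tumors with 5 or more cells were used, since clobetasol tumor 5 with 7 cells stood at 6.31 (log2 change 0.42, limma adjusted p = 0.158; edgeR adjusted p = 0.0799). The share of TAM cells with C1qb was 63.1% in control (59.4 to 66.6) and 65.1% in clobetasol tumors (49.1 to 79.0). C1qc was 5.80 and 9.49 in clobetasol tumors 2 and 3 against 4.48 to 6.37 in control, with a log2 difference of 0.41 ± 0.18 (SE, limma, adjusted p = 0.139). C1qa, at 9.50 and 10.9 against 8.13 to 12.3, differed by 0.00 ± 0.15 on the log2 scale (SE, limma, adjusted p = 0.993). Of the 3 chains, C1qb alone passed either test. With each tumor weighted by its cells, limma called 0 of the 9 members and 48 genes in all.

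Apoe was 27.7 and 40.5 UMIs per 10000 in clobetasol tumors 2 and 3, against 25.7, 36.5, 26.4, 39.3 and 36.4 in control tumors 1 to 5, with a log2 difference of 0.05 ± 0.20 (SE, limma, adjusted p = 0.889). Spp1 was 3.92 and 6.04 against 3.85 to 7.93, a log2 difference of -0.11 ± 0.27 (SE, limma, adjusted p = 0.802), but the 10 cells of clobetasol tumors 4 and 5 held 0 and 0.558 per 10000. Trem2 was 0.709 in clobetasol tumor 2 and 1.54 in tumor 3, below and above the control range of 0.915 to 1.19, and its log2 difference of -0.01 ± 0.23 (SE, limma, adjusted p = 0.989) joined these 2 unlike values. Without clobetasol tumor 2 the value for Trem2 was 0.51 (limma, adjusted p = 0.0365), and without tumor 3 it was -0.52 (limma, adjusted p = 0.0323). With cells thinned to 2000 UMIs it was -1.23 (limma, adjusted p = 0.0224). Gpnmb was below the filter, with 28 UMIs in control TAM, 22 of them in tumor 2, and 12 in clobetasol TAM, where 4 of 4 tumors with TAM held it.

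The other genes of these pathways were called in both directions in TAM, with counts to be read beside the 21.2% (limma) and 11.2% (edgeR) of all genes. Of 11 tested genes of classical complement and its regulators (19 listed), limma called 1 higher and 2 lower, and edgeR 1 higher and 1 lower. C3, the central complement component, rose from 3.38 ± 0.210 to 4.44 ± 0.118 UMIs per 10000 (SD, n = 5 and 2), and Cfp, which encodes properdin, fell from 2.70 ± 0.192 to 0.989 ± 0.188. The median log2 change of that list was -0.24, against -0.12 over all genes. Of 11 tested genes of cholesterol efflux and the LXR targets, limma called 2 lower and edgeR 0, with a median of 0.10. Of 12 tested genes of lipid uptake, storage and lysosomal breakdown, limma called 1 higher and 2 lower and edgeR 1 each. Plin2, which coats lipid droplets, rose from 1.86 ± 0.397 to 2.87 ± 0.165. The median of that list was -0.01.

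Of 20 tested genes of Trem2 signaling and lysosomes, limma called 1 higher and 3 lower and edgeR 1 higher, with a median of 0.05. Tyrobp, the signaling partner of Trem2, rose from 7.37 ± 0.437 to 9.83 ± 0.157 UMIs per 10000. Of 7 tested receptors for dying cells, limma called 1 higher and 2 lower and edgeR 2 lower, with a median of -0.31. Axl, a receptor tyrosine kinase of efferocytosis, fell from 1.69 ± 0.228 to 0.490 ± 0.546, and Mrc1, the mannose receptor, from 3.97 ± 0.861 to 1.85 ± 0.0173. Of the 7 glucocorticoid-induced genes, listed as a check of the treatment, 5 were higher by both tests, with a median of 2.05. Fkbp5 rose by 3.04, Klf9 by 2.68, Tsc22d3 by 2.28 and Zbtb16 by 2.05 on the log2 scale (limma).

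Markers of other cells moved with the groups. The 7 monocyte markers summed to 54.8 to 65.5 UMIs per 10000 in TAM of control tumors and to 73.6 and 109 in clobetasol tumors, and of these F13a1 (log2 change 2.20) and Vcan (1.10) rose by both tests and Ccr2 (-0.33) fell by limma alone. The 8 TAM markers summed to 28.2 to 37.2 in control and 23.5 to 30.2 in clobetasol tumors, where Ms4a7 (-1.99) and Mrc1 (-1.04) fell by both tests, and by limma alone Csf1r (-0.40) fell and Mertk (0.64) rose. The 7 neutrophil markers summed to 1.04 to 1.38 and to 1.93 and 3.63, where S100a8 and Cxcr2 rose by both tests and Retnlg, Mmp9 and G0s2 were at 0 in clobetasol TAM. Of the DC markers H2-Aa alone passed the filter, and it fell (-0.77). When TAM and Monocytes 1 to 3 were joined as 1 class, Fabp5 and Pltp were lower, at log2 changes of -2.96 (limma, adjusted p = 8.14e-05) and -2.40 (limma, adjusted p = 0.000434). C1qb stood at 0.49 (limma, adjusted p = 0.0590) and was called by edgeR (0.66, adjusted p = 0.0336). Fabp5 was at most 0.111 and Pltp at most 0.0943 in clobetasol tumors 2 and 3, so both passed the filter through their control levels. The joined class also holds the TAM cells already tested, so these values are a description. The part of the other markers in the TAM results was not tested.

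In monocytes the C1q chains, Fabp5 and Pltp were lower in the 1 clobetasol tumor with enough cells than in every control tumor, and C1qa was called by both tests. The share of all genes that were lowest in that tumor was not computed, so this pattern of the members is a description. The median log2 change of all genes in monocytes was -0.18 by limma and -0.08 by edgeR. Monocytes 1 to 3 were joined, and 5 control tumors were set against clobetasol tumor 3 alone, which had 10 cells, so its spread was assumed to be that of the control tumors. limma called 5 of 8 members, against 23.9% of 5771 genes, and edgeR 1 of 8, against 4.92%. These calls rest on that 1 tumor, and C1qa, Fabp5 and Pltp passed the filter through their control levels. With tumors weighted by their cells all 5 limma calls ended (adjusted p = 0.128 to 0.712), and with cells thinned to 2000 UMIs those of C1qb, C1qc and Pltp ended (adjusted p = 0.138 to 0.798). C1qa was 1.59, 2.70, 2.07, 3.35 and 1.14 UMIs per 10000 in control tumors 1 to 5, and no C1qa UMI was found in the 21 monocytes of the 4 clobetasol tumors that had any. Set against 1344 UMIs in control this gives a bound of 26.8-fold (3 counts over the group). That bound takes the UMIs of 1 cell as independent, so it is too strong as a limit on the fall. In Monocytes 1, C1qa was found in 28.3% of 311 control cells, and 0 of 18 clobetasol cells allows up to 16.7% (exact binomial limit 18.5%). CD8 T cells held 0.144 pooled C1qa UMIs per 10000 in control and 0.0193 in clobetasol tumors, below the range of the control monocytes. C1qb was 1.44 to 2.35 in control tumors and 0.717 in clobetasol tumor 3 (limma adjusted p = 0.0167; edgeR adjusted p = 0.130), and with every cell thinned to 2000 UMIs its log2 change was 0.13 (limma, adjusted p = 0.798). C1qc was 0.557 to 1.60 and 0.215 (limma adjusted p = 0.0142; edgeR adjusted p = 0.105).

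Fabp5 in monocytes was 1.80, 1.74, 1.55, 1.64 and 0.384 in control tumors and 0.0686 in clobetasol tumor 3 (limma adjusted p = 0.0118; edgeR adjusted p = 0.0627), with 907 control UMIs and 1 clobetasol UMI. Pltp had 211 control UMIs and 0 in clobetasol tumors, a bound of 4.21-fold that again takes UMIs as independent. In Monocytes 1, Pltp was found in 22.8% of control cells, and 0 of 18 clobetasol cells allows up to 16.7% (exact binomial limit 18.5%). Apoe was 18.3 in clobetasol tumor 3 against 7.95 to 16.3 in control tumors, a log2 difference of 0.72 ± 0.35 (SE, limma, adjusted p = 0.161). With clobetasol tumor 2 and its 8 cells, where Apoe was 25.5, it rose by 0.96 ± 0.28 (SE, limma, adjusted p = 0.0448; edgeR adjusted p = 0.0346). In that comparison of 5 and 2 tumors the C1q chains, Fabp5 and Pltp were lower by both tests. Over all genes limma called 887 of 5765 there and edgeR 392. C1qa, Fabp5 and Pltp again passed the filter through their control levels, and with tumor 2 added C1qc did so as well. C1qa and Pltp had 0 clobetasol UMIs. C1qc had 0 in tumor 2 and 4 in tumor 3, all in 1 cell. These calls are therefore a description. Spp1 and Trem2 did not pass either test, at log2 differences of 0.40 ± 0.95 and 0.26 ± 0.41 (SE, limma).

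Monocytes 1, with more C1q than Monocytes 2, made up 21.1% to 77.4% of the monocytes in control tumors and 18 of the 21 in clobetasol tumors, and the 1 monocyte of clobetasol tumor 4 was not among them; this share was not tested. Within Monocytes 1 alone, C1qa went from 1025 UMIs in 311 control cells to 0 in 18 clobetasol cells, and Apoe was 29.2, 17.9 and 10.5 per 10000 in clobetasol tumors 2, 3 and 5 (7, 9 and 2 cells) against 8.19 to 20.6 in the 5 control tumors, so the groups overlapped.

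In neutrophils Spp1 was the member that changed. It was 3.00, 2.28, 2.85, 0.495 and 0.634 UMIs per 10000 in control tumors 1 to 5, 0 in clobetasol tumor 2 and 0.113 in tumor 3. The groups did not overlap, and Spp1 changed by -3.43 ± 0.65 on the log2 scale (SE, limma, adjusted p = 0.00423; edgeR adjusted p = 0.0218). It was 1 of 3 members tested, against 4.83% of 4411 genes by limma and 4.6% by edgeR. Spp1 passed the filter on low values through its control level, so this count is a description. The size of its change depends on the pseudocount, since clobetasol tumor 2 was at 0. Clobetasol tumor 5, with 7 neutrophils, stood at 1.05, within the control range, and with it the call was lost (log2 change -2.43, limma adjusted p = 0.106; edgeR adjusted p = 0.0702). The call was also lost without clobetasol tumor 2, and the control UMIs came from 20 of 162 cells. Apoe was 0.407 to 1.49 in control and 1.12 and 0.289 in clobetasol tumors, and Fabp5 was 0 to 0.795 and 0.763 and 0.316, both without a call by either test. C1q in neutrophils, at 0.143 to 0.184 in control tumors, stood beside 0.0607 to 0.159 in CD8 T cells and rested on at most 10 UMIs a chain in control cells, and Trem2, Gpnmb and Pltp had 0 UMIs in neutrophils of both groups.

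In DC 1, where Fabp5 was highest, it was lower in every clobetasol tumor. All 10 tumors had DC 1 cells, but the clobetasol tumors had 1 to 3 each, so this comparison, chosen after the values were seen, used tumors with at least 1 cell. Fabp5 was 16.9, 29.5, 13.7, 14.7 and 15.3 UMIs per 10000 in control tumors and 5.39, 0, 2.70, 1.04 and 2.69 in clobetasol tumors. The log2 change was -3.66 ± 0.86 (SE, limma, adjusted p = 0.0639), which missed the threshold, and edgeR called it (adjusted p = 0.00424). Over all genes limma called 1.24% of 5424 and edgeR 2.75%. In counts, 3315 UMIs in 97 control cells stood against 66 in 10 clobetasol cells, a pooled level 7.34-fold lower (5.75 to 9.51). It was the 1 member that passed the filter in DC 1. DC 2 held 9 clobetasol cells and was not tested. Its Fabp5 was 4.40 in clobetasol tumor 3, above the control range of 0.309 to 3.80, and 0 in the 3 other clobetasol tumors. All 21 Fabp5 UMIs of DC 2 in clobetasol tumor 3 came from 1 of its 3 cells. Pltp in DC 2 was 0 to 0.419 in clobetasol and 0.297 to 1.12 in control tumors, with 3 and 105 UMIs.

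**Figure D3:**
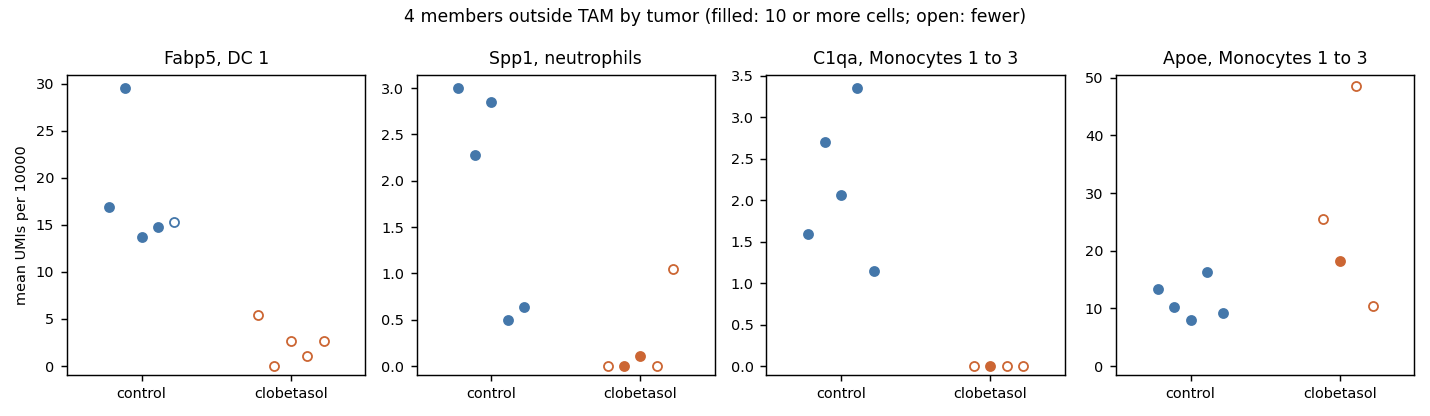
Mean UMIs per 10000 by tumor (vertical axes, linear) for Fabp5 in DC 1, Spp1 in neutrophils, and C1qa and Apoe in Monocytes 1 to 3; filled points have 10 or more cells and open points fewer. C1qa is at 0 in the 4 clobetasol tumors with monocytes, Fabp5 at or below 5.39 in the 5 with DC 1 cells, and 1 open clobetasol point of Spp1 lies within the control range.

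The differences between classes were tested within tumors. Between TAM and neutrophils, 0 of 3 members had a change that differed (limma), against 0.283% of 3886 genes: Fabp5 by -3.47 ± 0.77 (SE, limma, adjusted p = 0.0874), Spp1 by 3.32 ± 0.84 (SE, limma, adjusted p = 0.109) and Apoe by 0.37 ± 0.65 (SE, limma, adjusted p = 0.824). Of the 3886 genes 616 had an unadjusted p under 0.05. Between TAM and monocytes, a test chosen after the values were seen, the change of C1qa was 4.51 ± 0.89 higher on the log2 scale in TAM (SE, limma, adjusted p = 0.0141), as 1 of 8 members against 12.5% of 5464 genes, with 5 control tumors and clobetasol tumor 3. Since C1qa was at 0 in the monocytes of that 1 tumor, the size of this difference depends on the pseudocount, and the spread of the clobetasol arm was not measured. C1qb, at 2.08 ± 0.63, and C1qc, at 2.72 ± 0.81, missed the threshold there (limma, adjusted p = 0.0577 and 0.0565). With tumors of 5 or more cells in both classes, 5 and 2, all 3 chains passed, at 4.42, 2.96 and 3.19 (limma, adjusted p = 0.0310, 0.0492 and 0.0492). They were 3 of 8 members, against 124 of 5452 genes, and the monocytes of both clobetasol tumors held no C1qa. These monocytes held 1 C1qb UMI in tumor 2 and 13 in 2 cells of tumor 3. Their C1qc was 0 UMIs in tumor 2 and 4 in 1 cell of tumor 3. C1qa and C1qc passed the monocyte filter through their control levels, and the sizes of all 3 differences depend on the pseudocount, so they are a description. The changes of Fabp5 and Pltp did not differ between TAM and monocytes in either fit, with differences of 0.82 ± 0.74 and 0.04 ± 0.51 (SE, limma) in the first.

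**Figure D4:**
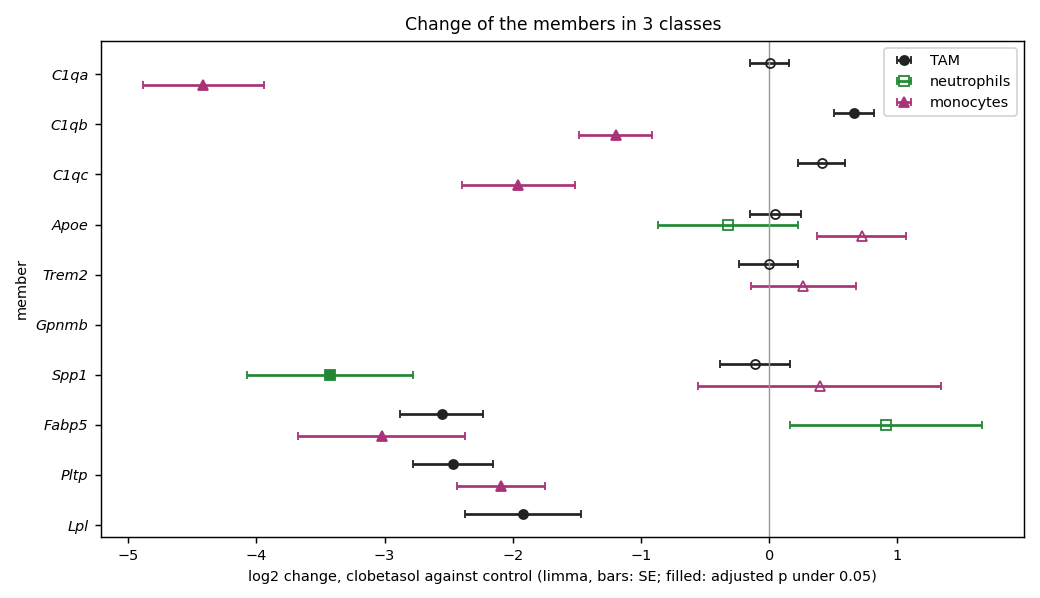
log2 change from control to clobetasol (horizontal axis) of each member in TAM, neutrophils and Monocytes 1 to 3, with the SE of the limma fit as bars and filled marks for an adjusted p under 0.05. C1qa sits at 0.00 in TAM and at -4.41 in monocytes, Fabp5 and Pltp are at or below -2.09 in both, and Spp1 is at -3.43 in neutrophils. Lpl in TAM and C1qa and Pltp in monocytes had 0 UMIs in the clobetasol tumors, so their places depend on the pseudocount. Spp1 in neutrophils was at 0 in a clobetasol tumor, so its place depends on the pseudocount as well.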

How the data were processed

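Per the labels and the study's methods, the authors sorted live CD45+ cells, made 3' single-cell libraries of 1 control and 1 clobetasol pool, aligned them to mm10 with Cell Ranger 7.1.0, and used R 4.3.1, Seurat 5.0.3 and Partek (submitters' processing notes). They kept cells of a single hashtag and named the clusters. The deposited values are the natural log of 1 + UMIs per 10000 UMIs of the cell, and dividing out each cell's deposited total count gave whole UMI counts for 100% of 10330441 values above 0 (tolerance 0.01). The deposited percent of mitochondrial UMIs was read for depth alone. No doublet caller was run here.

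Cells were averaged by tumor and class. The test was limma 3.58.1 (R 4.3.3, trend and robust) on log2(mean UMIs per 10000 + 0.1), over genes with a mean of at least 0.2, tumors with at least 10 cells and all genes in the Benjamini-Hochberg adjustment, with a threshold of 0.05. With the pseudocount, the change of a weakly expressed gene comes out too small. edgeR 4.0.16 (quasi-likelihood) and DESeq2 1.42.0 on the recovered UMI sums were alternatives, as were other pseudocounts, filters, cell minimums, scalings, weights and thinning. Intervals are exact (Poisson or binomial, 95%) and cover counting error only. Python 3.11.15 with numpy 2.4.6, scipy 1.17.1 and pandas 2.3.3 was used. The scripts were tested on simulated data, where limma made more false calls than edgeR with the TAM design, so a call by limma alone is weaker evidence than a call by both. Genes named are the 10 members, the 2 genes most like each, and list genes called by both tests, of which some are not reported here. The members and lists were chosen with earlier results of these data known.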

Additional observations from a re-analysis of the deposited data

Results flagged for a closer look

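10 of 55 groups of 4 or 5 control tumors held a tumor far from the others by Dixon's test. The test is made for normal values and many of these levels are near 0, so the count is a description. Gpnmb in TAM was 0.346 UMIs per 10000 in control tumor 2 (22 UMIs) against 0 to 0.0465 in the others, and in Monocytes 2 it was 0.828 in the same tumor (6 UMIs) against 0 to 0.0194. In Monocytes 2, control tumor 4 stood out for Apoe, at 13.1 against 4.63 to 6.20, and for Pltp, at 0.635 against 0.0566 to 0.205. Lpl in Monocytes 2 was 0 in control tumor 5 and 0.526 to 0.589 in the others. Apoe in DC 2 was 0.316 in control tumor 3 against 0.502 to 0.569. The other 4 rested on 1 or 2 UMIs: Lpl in DC 1 (0.0147, control tumor 3), Gpnmb in DC 2 (0.0194, control tumor 3), C1qb in neutrophils (0.623, control tumor 5) and Lpl in neutrophils (0.111, control tumor 5). For Lpl and Gpnmb here every other tumor was at 0, where the test flags any single tumor with a UMI.

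The change of C1qa under clobetasol differed between TAM and monocytes by 4.51 on the log2 scale (limma, adjusted p = 0.0141), with 1 clobetasol tumor in the test. The test was chosen after the values were seen, and its size depends on the pseudocount, since that tumor's monocytes held no C1qa.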

How the results depend on the processing

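No paired analysis was possible because no tumor belongs to both groups and hashtag numbers only name tumors. Counts of calls by limma depended on the setting. In TAM, 1270 genes became 735 with DESeq2, 669 with edgeR, 746 with edgeR and tumors of 5 or more cells, 824 after thinning, 667 with a mean of at least 1 and 48 weighted by cells, and 867 to 2117 without 1 tumor (2117 without clobetasol tumor 3). The 4 members called there became 2 with monocytes added, 2 with edgeR at 5 or more cells, 2 on the mean of log values, 1 with a mean of at least 1 and 0 weighted by cells. In monocytes, 1379 genes became 310 (DESeq2), 284 (edgeR), 887 (5 or more cells), 392 (the same with edgeR), 596 (mean of at least 1) and 3 (weighted), and 1028 to 2296 without 1 control tumor (2296 without tumor 5). The 5 members became 2 (DESeq2), 2 (thinned), 1 (edgeR) and 0 (weighted). In neutrophils, 213 genes became 390 on the mean of log values and 81 weighted, and 105 to 241 without 1 tumor (105 without clobetasol tumor 3). The 1 member called became 0 with 5 or more cells by limma or edgeR, 0 on the mean of log values, and 0 to 1 without 1 tumor (0 without clobetasol tumor 2). In DC 1, 67 genes became 149 with edgeR and 122 with edgeR without the highest Fabp5 cell of each tumor, and 16 to 107 without 1 tumor. The 0 members became 1 by each of these and by limma without those cells, and 0 to 1 without 1 tumor. Of members differing between TAM and neutrophils, 0 became 1 on the mean of log values and 1 with a pseudocount of 0.5, and between TAM and monocytes 1 became 3 with 5 or more cells. C1qb in monocytes turned to 0.13 after thinning, and Trem2 in TAM ranged from -0.52 to 0.51 without 1 tumor. The cause was not tested. The planned minimum of 20 cells left no clobetasol tumor in any class. The DC 1 test, the TAM and monocyte comparison, the joined class and edgeR at 5 or more cells were chosen after seeing the data. The depth limit is the 43 TAM, 44 neutrophil and 21 monocyte cells of clobetasol tumors.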
